A study of Arabidopsis thaliana with 48 samples.

Results

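The comparison described here set the roots of elp2-5, a mutant of the Elongator subunit ELP2, against the roots of the wild type Col-0, both grown on the ground. Its members were chosen by label, as the root libraries of these genotypes from the ground control (GC), which gave 8 libraries, 4 elp2-5 and 4 Col-0, of the 48 in the series and the 24 from roots. The elp2-5 seedlings carry the mutant allele in the Col-0 background, and the Col-0 seedlings are unmutated. Seedlings of all groups grew on Phytagel plates with Murashige and Skoog salts under constant light in the Veggie growth hardware and were fixed in RNAlater at an age of 11 days, the GC plants in a chamber at Kennedy Space Center that copies the conditions of the International Space Station. The same genotypes grown in flight (FT) on the station, 4 elp2-5 FT and 4 Col-0 FT root libraries, gave the comparison a second set of libraries, and roots of another genotype, met1-7, entered the fit only. The study asked how regulators of the epigenome take part in the adjustment of plants to spaceflight, and the ground comparison gives the difference between the genotypes without flight. The study's methods describe the 4 libraries of a group as biological replicates, each combining plants of 2 plates, and the labels number them without naming the plates.

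Elongator is a complex conserved between yeast, animals and plants. Its catalytic subunit Elp3 carries a radical SAM and an acetyltransferase domain, and the complex modifies uridines at the wobble position of tRNAs and was first purified with elongating RNA polymerase II. In Arabidopsis, Elongator mutants are known for narrow leaves, short roots, and altered auxin, abscisic acid and immune responses, and ELP2 is a WD40-repeat subunit that holds the complex together.

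All values are FPKM, fragment numbers scaled by transcript length and by library size, so levels of different genes are compared per length. Differences are given as log2 fold changes, elp2-5 over Col-0, of FPKM + 0.5 with their standard errors, which understates the change of genes at low levels, and the adjusted p is that of limma with Benjamini-Hochberg correction over 21000 genes. A gene is called a differentially expressed gene (DEG) where the adjusted p was under 0.05, the fold change was at least 2, and FPKM was above 0 in at least 1 library of each genotype. Read totals are not part of the deposited tables, and depth relative to the other libraries, estimated from 107 low genes whose few values above 0 were taken to be of 1 fragment each, was 0.97 to 1.05 in elp2-5 and 0.89 to 1.16 in Col-0.

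The libraries carried root markers and few leaf transcripts. The summed FPKM of 23 leaf and photosynthesis genes was 1051 to 1742 in elp2-5 roots and 917 to 1837 in Col-0 roots, against 114600 to 119800 in Col-0 GC leaves. Of these genes, 22 were tested, and none passed the test between the genotypes in roots. Without Col-0 replicate 3, 1 did, higher in elp2-5. Within each genotype 1 library stood apart. Replicate 2 of elp2-5 had a median correlation of 0.964 with the others of its group, the highest FPKM total (938877) and the most FPKM from plastid genes (3707). Replicate 4 of Col-0 had a median correlation of 0.957 and differed more than 2-fold from its group in 918 genes, with CYP71A12, a cytochrome P450 of camalexin synthesis, at 383 FPKM against a mean of 0.443 FPKM in the other Col-0 libraries, and CBP60G, an activator of salicylic acid synthesis, at 49.6 against 0.557 FPKM. A call or a count of list members past the test is also given without a library where leaving out that library ended the call or moved the count by more than 1.5 times. Whole roots were sampled, and fewer cells of a type and less RNA per cell cannot be told apart.

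ELP2 (AT1G49540, chr1:18333623-18337520 of TAIR10.1, minus strand) is the gene mutated in elp2-5. It had 5.48, 4.23, 5.78 and 5.56 FPKM in elp2-5, against 13.5, 12.5, 11.6 and 10.7 FPKM in Col-0. Every elp2-5 library was below every Col-0 library (log2 fold change −1.13 ± 0.08, adjusted p = 1.7e-09), and transcript remained in all of the mutant libraries. In FT roots the log2 fold change was −1.24. The locus overlaps AT1G49530 and AT1G07567, and its counted fragments cover the annotated gene and not the mutated position alone.

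Across all genes, 784 of 21000 were DEGs, which is 3.73%. Of these, 373 were higher in elp2-5 (1.78% of genes tested) and 411 were lower (1.96%). Without the threshold on fold, 8120 genes had an adjusted p under 0.05 (38.7%), 3965 of them higher (18.9%) and 4155 lower (19.8%), so most differences that passed the test were below 2-fold. The genotypes did not overlap in 668 of the 784 DEGs (85.2%), beside 28.6% of all genes tested. The calls rest on the same libraries, so a higher share among DEGs is partly built into the call and is no separate support for it. The genes named below by rank of rise or fall, in fold or in mean FPKM, were taken from these 668. Changes of at least 4-fold were found in 52 genes that rose and 61 that fell, and of at least 8-fold in 8 and 25. The median log2 fold change was 1.33 among DEGs that rose and −1.31 among those that fell, with a median standard error of 0.10 over all genes. Without Col-0 replicate 4 there were 901 DEGs (470 higher, 431 lower), of which 715 were among the 784, and without elp2-5 replicate 2 there were 729 (314 higher, 415 lower), of which 659 were among them. A near-identical copy elsewhere in the genome exists for 19 of the DEGs, and 176 overlap another annotated locus.

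**Figure D1:**
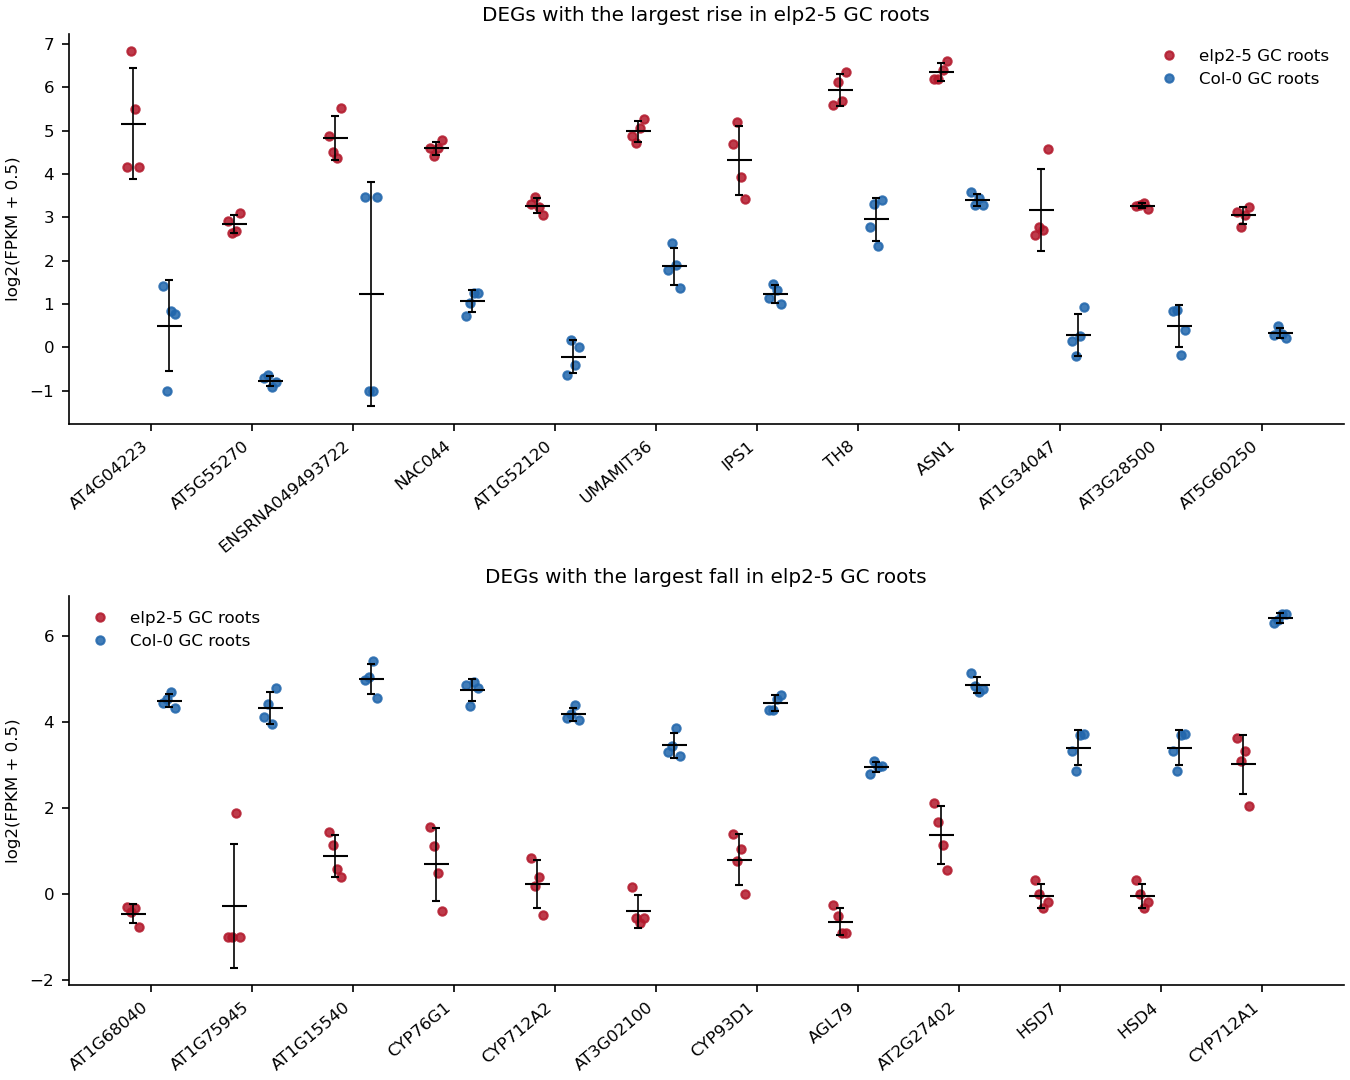
FPKM on a log2(FPKM + 0.5) scale in each of the 4 elp2-5 and 4 Col-0 GC root libraries, for 12 DEGs that rose most and 12 that fell most, all without overlap of the genotypes. Points are libraries and bars are the mean and SD. Each gene shows a gap between the genotypes, and ENSRNA049493722 and AT4G04223 spread most between libraries.

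Of the 11 genes for Elongator subunits and for the proteins that complete the same wobble modification, 5 rose, 2 fell and 4 did not pass the test, with a median log2 fold change of 0.14 beside −0.004 over all genes. The members that rose were ELP6 (0.35) and AT2G18410 (0.27), both accessory subunits, AT1G36310 (0.24) and AT1G22270 (0.18), annotated as a methyltransferase and as Trm112p-like, and AT4G35910 (0.24), annotated as an alpha hydrolase-like protein. ELO3, the catalytic subunit, fell to 20.2 ± 3.00 FPKM in elp2-5, against 23.9 ± 2.86 FPKM in Col-0 (SD, n = 4 each, log2 fold change −0.24 ± 0.09, adjusted p = 0.045). ABO1, the largest subunit, stood at 15.0 ± 2.75 FPKM in elp2-5, against 14.2 ± 1.34 FPKM in Col-0 and did not pass the test (adjusted p = 0.65). Most of these calls were near the threshold. The members that rose numbered 2 without Col-0 replicate 3, and 3 without Col-0 replicate 4 or elp2-5 replicate 1, 2 or 4. AT1G22270 lost its call without Col-0 replicates 1 or 3 or elp2-5 replicates 2, 3 or 4, AT2G18410 without Col-0 replicates 3 or 4 or elp2-5 replicates 1 or 2, and AT4G35910 without Col-0 replicates 3 or 4 or elp2-5 replicates 1 or 4, with adjusted p of 0.05 to 0.12 and log2 fold changes of 0.14 to 0.26 in those fits. ELO3 did so without Col-0 replicates 1, 2 or 3 or elp2-5 replicates 2 or 4 (−0.13 to −0.27, adjusted p of 0.052 to 0.2), and its value was −0.13 without elp2-5 replicate 2, the lowest library. ELP2 was then the only member that fell.

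The DNA methylation and silencing list held 21 genes, of which 4 rose and none fell, a share of rises close to the 18.9% of all genes tested, and 1 member fell without Col-0 replicate 4. DML2, a DNA glycosylase that removes 5-methylcytosine, reached 3.33, 2.35, 3.36 and 3.33 FPKM in elp2-5, against 1.41, 1.34, 1.54 and 1.70 FPKM in Col-0 (log2 fold change 0.84 ± 0.12, adjusted p = 2.2e-05), without overlap between the genotypes. NRPD1A, the largest subunit of RNA polymerase IV (0.50), SUVH4, a histone H3 lysine methyltransferase (0.50), and CHR1, the chromatin remodeller also known as DDM1 (0.28), rose less. MET1, the maintenance methyltransferase, had 21.6, 15.5, 19.8 and 23.0 FPKM in elp2-5 and 19.9, 19.98, 18.9 and 17.0 FPKM in Col-0, with an adjusted p of 0.74.

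The DNA damage response was the list of highest median change. In this pathway the NAC transcription factor SOG1 is activated by phosphorylation after DNA breaks and induces genes of repair, checkpoint and cell cycle arrest, among them the NAC factors NAC044 and NAC085. Of 16 genes tested on the list, 10 had an adjusted p under 0.05 and all of these rose, 3 as DEGs, and the median log2 fold change was 0.56. Summed over all 17 members, FPKM was 224.8 to 255.4 in elp2-5, against 150.6 to 159.8 in Col-0, without overlap.

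NAC044, a transcription factor that holds cells before mitosis after DNA damage, reached 23.8, 20.8, 23.65 and 27.0 FPKM in elp2-5, against 1.15, 1.55, 1.90 and 1.89 FPKM in Col-0. The lowest elp2-5 library was above every Col-0 library, and the gene ranked among the strongest rises of the comparison (log2 fold change 3.53 ± 0.19, adjusted p = 2.4e-11). NAC085, its closest relative, had 1.49, 1.03, 1.72 and 1.52 FPKM in elp2-5 and 0.11, 0.04, 0 and 0.09 FPKM in Col-0 (log2 fold change 1.78 ± 0.17, adjusted p = 1.2e-07). Its 4 elp2-5 libraries alone met the filter of 1 FPKM in at least 4 libraries, and no Col-0 GC library reached 1 FPKM. A gene so low in Col-0 could be tested only where other libraries were higher, so the rise of NAC085 is no separate support for the list. GMI1, a structural maintenance of chromosomes-like protein induced by irradiation, had 8.63, 4.61, 7.80 and 8.89 FPKM in elp2-5 and 2.35, 2.93, 2.67 and 1.66 FPKM in Col-0 (log2 fold change 1.44 ± 0.17, adjusted p = 1.0e-06). In both genes the genotypes did not overlap. GMI1 overlaps AT5G03735, and NAC044 and NAC085 overlap no other locus.

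The other members that rose changed less than 2-fold. BRCA1, a ubiquitin ligase of homologous recombination, had 7.43 ± 1.84 FPKM in elp2-5, against 4.05 ± 0.443 FPKM in Col-0 (log2 fold change 0.77 ± 0.14, adjusted p = 0.00015). TSO2, the small subunit of ribonucleotide reductase, which supplies deoxynucleotides, had 103 ± 5.89 FPKM in elp2-5, against 67.7 ± 3.71 FPKM in Col-0 (log2 fold change 0.60 ± 0.06, adjusted p = 3.9e-07). PARP2, a poly(ADP-ribose) polymerase, and XRI1, an X-ray induced gene needed after DNA damage, had log2 fold changes of 0.51 and 0.50. Further members that rose, named after their values were seen, were ATRAD17 (0.77), a checkpoint clamp loader, and AT3G27630 (0.77), an inhibitor of cyclin-dependent kinases of the SIAMESE family. SOG1 itself had 19.3 ± 1.05 FPKM in elp2-5, against 20.4 ± 1.32 FPKM in Col-0, and its difference did not pass the test (log2 fold change −0.08 ± 0.05, adjusted p = 0.22). Without elp2-5 replicate 2 the list had 11 members that rose, and without Col-0 replicate 4 it had 10 that rose and 1 that fell.

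SOG1 binds a palindrome of CTT and AAG separated by 7 bases. The letters CTTNNNNNNNAAG, searched on both strands in the 250 bases before the annotated start, were found before 5 of the 16 genes of the list (31.2%), beside 9.02% of 19899 promoters of tested protein-coding genes, 14.1% of those of DEGs that rose (48 of 341) and 9.39% of those of DEGs that fell (37 of 394). The letters read the same on both strands. The 5 matches before 4 of these genes are shown because they belong to genes of the pathway in which most members rose. Each is written with 10 bases of flank in lower case and the match in capitals, read 5′ to 3′ on the strand of the gene, from the RefSeq copy of TAIR10.1.
PARP2 (chr4:1049660-1049692, plus strand): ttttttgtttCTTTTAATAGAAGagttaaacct
AT1G07500 (chr1:2305105-2305137, minus strand): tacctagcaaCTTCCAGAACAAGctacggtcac
AT1G07500 (chr1:2305041-2305073, minus strand): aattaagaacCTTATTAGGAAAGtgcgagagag
AT3G27630 (chr3:10231588-10231620, minus strand): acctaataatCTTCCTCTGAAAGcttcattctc
NAC044 (chr3:229000-229032, plus strand): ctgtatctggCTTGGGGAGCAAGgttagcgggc

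Of these genes, AT1G07500, which carries 2 matches, is also an inhibitor of the SIAMESE family and had 11.2 ± 9.65 FPKM in elp2-5, against 5.61 ± 3.99 FPKM in Col-0 (log2 fold change 1.12 ± 1.55, adjusted p = 0.61), so its difference did not pass the test. The match before NAC044 starts 65 bases before the annotated start. A match is a run of letters, and binding was not tested. The whole window (chr3:228825-229074, plus strand) is shown as that of the gene with the largest rise on the list, with the match in capitals.
NAC044: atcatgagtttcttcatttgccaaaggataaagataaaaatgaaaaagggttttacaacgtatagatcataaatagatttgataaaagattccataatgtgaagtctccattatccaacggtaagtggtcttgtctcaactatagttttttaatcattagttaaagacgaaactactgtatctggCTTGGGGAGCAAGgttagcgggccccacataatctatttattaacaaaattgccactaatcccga

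**Figure D2:**
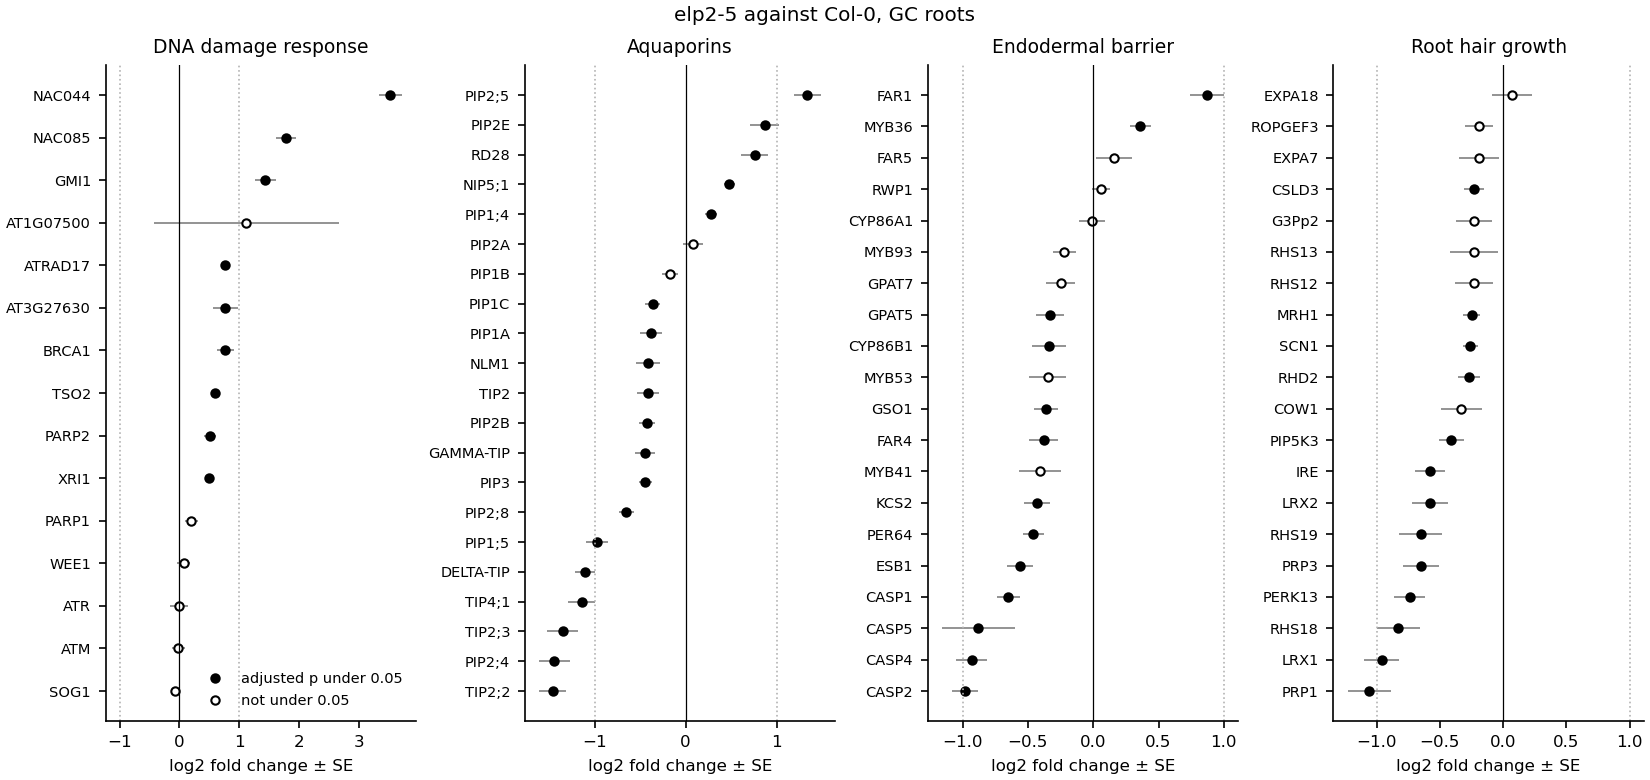
Log2 fold changes, elp2-5 over Col-0 in GC roots, with standard errors, for tested members of 4 lists (DNA damage response, aquaporins, endodermal barrier and root hair growth). Filled points had an adjusted p under 0.05. The DNA damage genes that passed the test lie right of 0 and the root hair growth genes that passed it lie left of 0.

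Among the other genes of largest rise, AT4G04223, a noncoding RNA, had 17.38, 113, 44.5 and 17.45 FPKM in elp2-5, against 2.19, 0, 1.28 and 1.2 FPKM in Col-0. Its elp2-5 libraries were all above those of Col-0 but differed widely among themselves (log2 fold change 4.65 ± 0.85, adjusted p = 0.0003). AT5G55270, a protein of unknown function with a DUF295 domain, had 7.06, 5.77, 5.98 and 8.03 FPKM in elp2-5 and 0.11, 0.14, 0.03 and 0.08 FPKM in Col-0 (log2 fold change 3.6 ± 0.19, adjusted p = 2.5e-11). AT1G52120, a mannose-binding lectin, had 9.46, 10.6, 8.89 and 7.86 FPKM in elp2-5 and 0.14, 0.63, 0.25 and 0.51 FPKM in Col-0 (log2 fold change 3.49 ± 0.37, adjusted p = 4.6e-07). In both genes the genotypes were far apart.

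UMAMIT36, a member of a family of amino acid exporters, had 28.8, 25.9, 33.1 and 37.9 FPKM in elp2-5 and 2.95, 4.83, 3.26 and 2.08 FPKM in Col-0 (log2 fold change 3.11 ± 0.22, adjusted p = 2.3e-09). ASN1, the glutamine-dependent asparagine synthetase that makes asparagine for nitrogen transport and is known to be induced by darkness and low sugar, reached 72.9, 72.4, 84.3 and 97.5 FPKM in elp2-5, against 11.6, 9.27, 10.3 and 9.20 FPKM in Col-0 (log2 fold change 2.95 ± 0.17, adjusted p = 8.9e-11). The lowest elp2-5 library held several times the ASN1 level of the highest Col-0 library. IPS1, a noncoding RNA that sequesters miR399 under phosphate starvation, had 25.5, 36.5, 14.6 and 10.2 FPKM in elp2-5 and 1.71, 2.25, 2.00 and 1.49 FPKM in Col-0 (log2 fold change 3.08 ± 0.59, adjusted p = 0.00042). TH8, an h-type thioredoxin, had 47.6, 68.6, 51.1 and 81.3 FPKM in elp2-5 and 6.34, 9.40, 4.58 and 9.98 FPKM in Col-0 (log2 fold change 2.98 ± 0.46, adjusted p = 5.0e-05).

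AT1G34047, a defensin-like peptide, had 5.55, 6.34, 6.07 and 23.4 FPKM in elp2-5 and 0.60, 0.37, 0.70 and 1.42 FPKM in Col-0 (log2 fold change 2.88 ± 0.43, adjusted p = 2.9e-05), and elp2-5 replicate 4 was well above the other mutant libraries. AT3G28500, a protein of the ribosomal stalk, had 9.09, 9.19, 9.61 and 8.71 FPKM in elp2-5 and 1.3, 1.32, 0.39 and 0.83 FPKM in Col-0 (log2 fold change 2.78 ± 0.24, adjusted p = 2.9e-08). AT5G60250, a RING-type zinc finger protein, had 8.25, 6.37, 7.76 and 8.92 FPKM in elp2-5 and 0.73, 0.90, 0.74 and 0.66 FPKM in Col-0 (log2 fold change 2.72 ± 0.17, adjusted p = 1.8e-10). The remaining strong rise was ENSRNA049493722, an Ensembl noncoding RNA entry without a name in the annotation used, at 29.1, 22.4, 20.3 and 45.1 FPKM in elp2-5 and 10.6, 0, 0 and 10.6 FPKM in Col-0 (log2 fold change 3.59 ± 1.3, adjusted p = 0.036). Its call rested on a few libraries and was lost in 8 alternatives, with an adjusted p of up to 0.12.

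Among the genes of largest fall, AT1G68040, a methyltransferase of the SABATH type, fell to 0.31, 0.24, 0.29 and 0.08 FPKM in elp2-5, against 21.1, 22.5, 25.3 and 19.4 FPKM in Col-0. Expression was close to 0 in every mutant library and well above it in every Col-0 library (log2 fold change −4.96 ± 0.24, adjusted p = 8.4e-12). AT1G15540, a 2-oxoglutarate-dependent dioxygenase, fell to 2.22, 1.68, 0.99 and 0.81 FPKM in elp2-5, against 30.9, 32.2, 42.2 and 23.1 FPKM in Col-0 (log2 fold change −4.11 ± 0.32, adjusted p = 1.2e-08). CYP76G1, a cytochrome P450, fell to 2.43, 1.66, 0.89 and 0.26 FPKM in elp2-5, against 28.5, 19.96, 29.9 and 27.1 FPKM in Col-0 (log2 fold change −4.05 ± 0.36, adjusted p = 6.8e-08).

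The related cytochrome P450 genes CYP712A2 and CYP712A1 fell together. CYP712A2 had 1.27, 0.64, 0.80 and 0.21 FPKM in elp2-5 and 16.4, 17.64, 20.4 and 15.9 FPKM in Col-0 (log2 fold change −3.95 ± 0.31, adjusted p = 1.2e-08), and CYP712A1 had 11.7, 7.96, 9.41 and 3.62 FPKM in elp2-5 and 77.7, 81.6, 90.5 and 90.2 FPKM in Col-0 (log2 fold change −3.40 ± 0.41, adjusted p = 3.2e-06). CYP93D1 had 2.1, 1.19, 1.56 and 0.49 FPKM in elp2-5 and 18.8, 18.9, 22.8 and 24.3 FPKM in Col-0 (log2 fold change −3.64 ± 0.35, adjusted p = 1.6e-07). The genotypes did not overlap in any of these P450 genes, as the ranking required.

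AT3G02100, a UDP-glycosyltransferase, had 0.61, 0.18, 0.12 and 0.18 FPKM in elp2-5 and 9.24, 10.4, 14.1 and 8.73 FPKM in Col-0 (log2 fold change −3.86 ± 0.23, adjusted p = 8.9e-11). AGL79, a MADS-box factor, had 0.33, 0.20, 0.03 and 0.03 FPKM in elp2-5 and 6.43, 7.96, 7.27 and 7.31 FPKM in Col-0 (log2 fold change −3.60 ± 0.26, adjusted p = 1.8e-09). AT2G27402, annotated as a plastid transcriptionally active protein, had 3.81, 2.68, 1.68 and 0.96 FPKM in elp2-5 and 34.4, 27.8, 25.3 and 26.8 FPKM in Col-0 (log2 fold change −3.49 ± 0.26, adjusted p = 5.3e-09). In all 3 genes the genotypes did not overlap, as the ranking required. HSD4 and HSD7, hydroxysteroid dehydrogenases known from seed oil bodies, are near-identical copies with identical values in each library, at 0.75, 0.49, 0.30 and 0.37 FPKM in elp2-5 and 9.54, 6.68, 12.5 and 12.7 FPKM in Col-0 (log2 fold change −3.45 ± 0.19, adjusted p = 3.9e-11), and their reads cannot be divided between them. AT1G75945, an uncharacterized protein, had 0, 0, 3.18 and 0 FPKM in elp2-5 and 16.8, 20.9, 15.0 and 27.1 FPKM in Col-0 (log2 fold change −4.60 ± 0.69, adjusted p = 4.4e-05). Without elp2-5 replicate 3, its other mutant libraries are at 0 FPKM, and the log2 fold change of −5.32 no longer met the requirement of a value above 0 in both genotypes.

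The changes of largest size in mean FPKM fell on abundant genes. ACT2, an actin of vegetative tissue that is often used as a reference gene for normalisation, fell to 302, 271, 306 and 273 FPKM in elp2-5, against 592, 599, 590.1 and 542 FPKM in Col-0. The genotypes were far apart and each was narrow, with Col-0 replicate 4 somewhat below the other Col-0 libraries (log2 fold change −1.01 ± 0.06, adjusted p = 3.9e-11). The fold change lay at the threshold of 2, and the log2 value was −0.98 without elp2-5 replicate 2, −0.99 without elp2-5 replicate 4 and just short of 2-fold without Col-0 replicate 2, each of which ended the call as a DEG while the adjusted p stayed under 0.05. MLP328, a major latex protein-like gene, fell to 741, 1033, 780.4 and 722 FPKM in elp2-5, against 2255, 2403, 2266 and 2132 FPKM in Col-0 (log2 fold change −1.48 ± 0.16, adjusted p = 6.1e-07). NRT1.5, the transporter that loads nitrate into the xylem, fell to 166, 218, 186 and 192 FPKM in elp2-5, against 497, 424, 548 and 418 FPKM in Col-0 (log2 fold change −1.30 ± 0.13, adjusted p = 1.5e-07). In neither gene did the genotypes overlap, as the ranking required.

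The extensin-like genes AT2G43150 and AT3G54580, which code for proline-rich cell wall proteins, fell as well. AT2G43150 had 969, 906, 905 and 758 FPKM in elp2-5 and 1592, 2049.9, 1984 and 2064 FPKM in Col-0 (log2 fold change −1.12 ± 0.15, adjusted p = 5.0e-06), with Col-0 replicate 1 below its group. AT3G54580 had 283, 196, 268 and 292 FPKM in elp2-5 and 390.4, 623, 507 and 697 FPKM in Col-0 (log2 fold change −1.07 ± 0.20, adjusted p = 0.00027), and its log2 fold change was −0.95 without elp2-5 replicate 2 and −0.95 without Col-0 replicate 4. AGP4, an arabinogalactan protein, had 273, 314, 249 and 207 FPKM in elp2-5 and 560.3, 598, 568 and 452 FPKM in Col-0 (log2 fold change −1.07 ± 0.13, adjusted p = 1.3e-06), and −0.97 without elp2-5 replicate 4.

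On the side of the rises, ERD5, the proline dehydrogenase of mitochondria that starts proline breakdown, reached 177, 250.1, 331 and 236 FPKM in elp2-5, against 69.5, 65.0, 88.2 and 77.0 FPKM in Col-0 (log2 fold change 1.70 ± 0.15, adjusted p = 2.9e-08). GDH2, a subunit of glutamate dehydrogenase, had 430.1, 569.6, 596 and 499 FPKM in elp2-5 and 229, 222, 244 and 309 FPKM in Col-0 (log2 fold change 1.06 ± 0.11, adjusted p = 2.8e-07), and its log2 fold change was 0.99 without elp2-5 replicate 3. AT5G01870, a lipid-transfer protein, had 421, 819, 461 and 531 FPKM in elp2-5 and 178, 201, 152 and 271 FPKM in Col-0 (log2 fold change 1.46 ± 0.21, adjusted p = 2.1e-05). The genotypes did not overlap in these 3 genes, as the ranking required. AT2G38380, a class III peroxidase, had 827, 1072, 875 and 901 FPKM in elp2-5 and 390.4, 456, 479.8 and 457 FPKM in Col-0 (log2 fold change 1.04 ± 0.10, adjusted p = 6.8e-08), and its log2 fold change was 0.96 without elp2-5 replicate 2 and 0.98 without Col-0 replicate 1. The other rises of this size were noncoding. ENSRNA049493837 had a log2 fold change of 1.2 and AT3G06355 one of 1.42. AT3G06355 overlaps AT3G41979 and has a near-identical copy in AT2G01020. The summed FPKM of all Ensembl noncoding RNA entries was 8972 to 10068 in elp2-5 and 5721 to 7412 in Col-0. The libraries were made from poly(A) RNA, and whether carry-over of other RNA had a part in these values was not tested.

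The other lists covered root tissues, transport, hormones and stress. Of the 477 list genes tested, 38 were DEGs (7.97%, beside 3.73% of all genes). The lists were chosen with earlier results of these data known, so a higher share can follow from that choice. Counts in each list are to be read beside the 18.9% of all genes that rose and the 19.8% that fell.

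**Figure D3:**
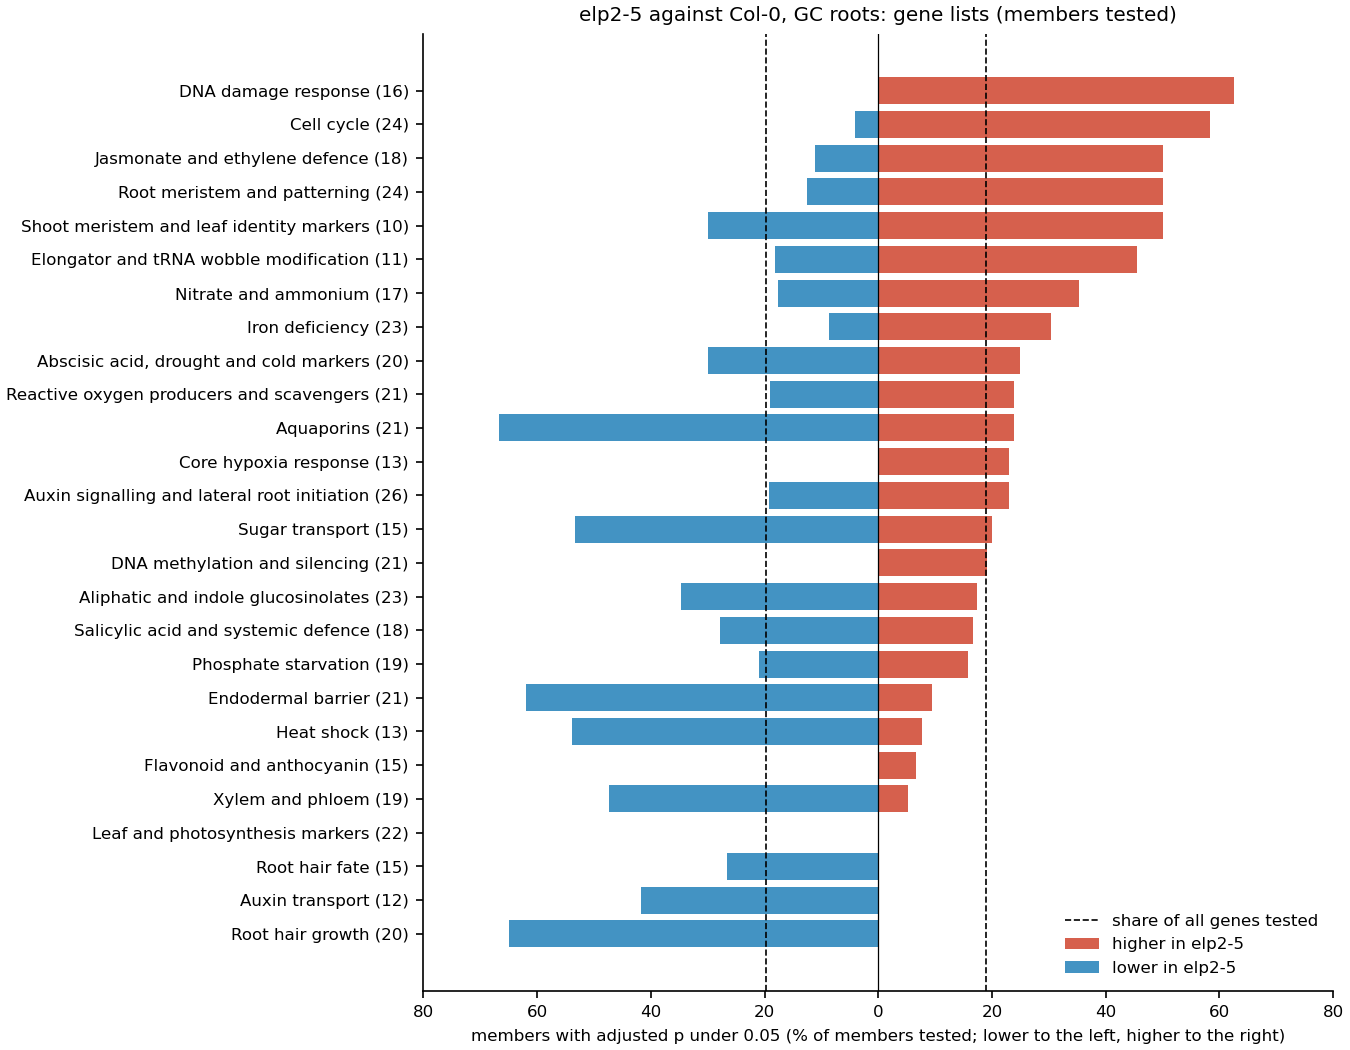
Share of the tested members of each list with an adjusted p under 0.05 in GC roots, lower in elp2-5 to the left and higher to the right. Dashed lines mark the shares over all genes tested, 19.8% lower and 18.9% higher. Root hair growth, aquaporins and endodermal barrier reach farthest to the left, and DNA damage response and cell cycle farthest to the right.

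Root meristem and patterning genes rose more often than they fell, with 12 of 24 higher, 3 lower and a median of 0.32. The summed FPKM of all 25 members was 296.3 to 316.9 in elp2-5, against 252.7 to 286.4 in Col-0. AIL6 and AIL7, PLETHORA factors that maintain the stem cell niche, had 32.5 ± 3.14 FPKM in elp2-5, against 18.3 ± 1.73 FPKM in Col-0 (log2 fold change 0.81 ± 0.10, adjusted p = 2.4e-06), and 6.40 ± 1.41 FPKM in elp2-5, against 3.36 ± 0.722 FPKM in Col-0 (log2 fold change 0.84 ± 0.18, adjusted p = 0.001). CYCD6;1, the cyclin of the formative division of the ground tissue, rose by a log2 fold change of 0.85 ± 0.14, and NAC015, a factor of root cap maturation, by 0.89 ± 0.16. RGF1, a peptide that sustains the PLETHORA gradient, had 3.70, 9.84, 5.19 and 4.33 FPKM in elp2-5 and 1.32, 1.97, 1.81 and 4.40 FPKM in Col-0 (log2 fold change 1.14 ± 0.31, adjusted p = 0.0062). The genotypes overlapped for RGF1, and its log2 fold change was 0.87 without elp2-5 replicate 2 and 0.95 without Col-0 replicate 1. SCR and JKD, factors that set the identity of the endodermis and quiescent centre, fell (−0.27 and −0.41), as did the receptor-like kinase AT4G26540 (−0.66). The call of SCR was lost without elp2-5 replicate 2 (−0.15, adjusted p = 0.17), Col-0 replicate 2 (−0.20, adjusted p = 0.14) or Col-0 replicate 1 (−0.28, adjusted p = 0.053). Without elp2-5 replicate 2 the list had 14 members that rose, and without Col-0 replicate 4 it had 10. It had 9 without Col-0 replicate 3, where the median was 0.19, and 9 without elp2-5 replicate 1 or 4.

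Cell cycle genes rose in 14 of 24 cases and fell in 1, with a median of 0.22. CYCB1;1, the cyclin of the transition to mitosis that is also induced by DNA damage, had 17.9, 19.1, 17.44 and 21.4 FPKM in elp2-5, against 13.3, 13.3, 10.8 and 12.3 FPKM in Col-0 (log2 fold change 0.59 ± 0.09, adjusted p = 3.6e-05). CYCD3;3 and CYCD3;1, cyclins of entry into the cell cycle, and CDC20.1, an activator of the anaphase-promoting complex, had log2 fold changes of 0.55, 0.42 and 0.41. The member that fell was ICK1 (−0.39), an inhibitor of cyclin-dependent kinases. Summed over the list, FPKM was 773.3 to 890.5 in elp2-5, against 653.6 to 717.3 in Col-0, and no member changed 2-fold. Without elp2-5 replicate 2 the members that rose numbered 12, and likewise 12 without Col-0 replicate 4. In FT roots 6 members rose and 1 fell.

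Genes of the endodermal barrier mostly fell. This layer deposits the lignin of the Casparian strip, placed by CASP membrane proteins, and later suberin. Of 21 genes, 13 fell, 2 rose and none was a DEG, with a median of −0.36. CASP2 fell to 40.7, 48.5, 46.8 and 44.8 FPKM in elp2-5, against 74.3, 87.6, 96.7 and 102 FPKM in Col-0 (log2 fold change −0.98 ± 0.10, adjusted p = 2.6e-07), and CASP4 to 14.2, 10.8, 13.8 and 12.7 FPKM in elp2-5, against 20.04, 26.0, 29.2 and 25.3 FPKM in Col-0 (log2 fold change −0.93 ± 0.12, adjusted p = 6.7e-06). CASP5 and CASP1 had log2 fold changes of −0.88 and −0.65, and in each of these 4 genes the genotypes did not overlap. CASP5 lost its call without elp2-5 replicate 2 (−0.71, adjusted p = 0.067) or Col-0 replicate 3 (−0.69, adjusted p = 0.074). The members that rose were FAR1, a fatty acid reductase of suberin synthesis (0.87 ± 0.13), and MYB36, the factor that switches on the CASP genes (29.1 ± 2.19 FPKM in elp2-5, against 22.6 ± 2.99 FPKM in Col-0, log2 fold change 0.36 ± 0.08, adjusted p = 0.0019). Without elp2-5 replicate 2 the members that fell numbered 11, and likewise 11 without Col-0 replicate 4. They numbered 9 without Col-0 replicate 3, 10 without elp2-5 replicate 3 or 4, and 15 without Col-0 replicate 1. In FT roots 7 members fell and 2 rose.

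Vascular genes fell in 9 of 19 cases, with a median of −0.32. SUC2, the proton symporter that loads sucrose into the phloem, fell to 9.65, 8.70, 10.9 and 7.14 FPKM in elp2-5, against 20.5, 17.5, 18.1 and 15.8 FPKM in Col-0 (log2 fold change −0.95 ± 0.14, adjusted p = 2.2e-05). LHW, a factor that sets the width of the vascular cylinder, CESA4 and IRX1, cellulose synthases of secondary walls, and WOL, a cytokinin receptor of the procambium, had log2 fold changes of −0.75, −0.70, −0.53 and −0.55. The member that rose was AT4G39810 (0.69). Over the whole list the summed FPKM was 310.1 to 428.5 in elp2-5, against 410.9 to 495.2 in Col-0.

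Most root hair genes of growth fell, fewer of those of fate did, and none of either list rose. Hair cells are set by RHD6-type bHLH factors, which act through RSL2, RSL4 and LRL3 on the genes of tip growth. Of 15 fate genes, 4 fell, 11 did not pass the test and none rose, beside 19.8% of all genes that fell. Without Col-0 replicate 3 the fate genes that fell numbered 7, and without elp2-5 replicate 1 there were 5 that fell and 1 that rose. RSL4, which sets hair length, had 7.31, 7.24, 8.54 and 7.01 FPKM in elp2-5 and 9.06, 12.4, 10.9 and 14.0 FPKM in Col-0 (log2 fold change −0.58 ± 0.14, adjusted p = 0.0031). RSL2 and LRL3 had log2 fold changes of −0.73 and −0.68, and EGL3, a bHLH factor of the fate complex, one of −0.44. Of 20 growth genes, 13 fell, 7 did not pass the test and none rose, with a median of −0.30.

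LRX1, an extensin with leucine-rich repeats in the wall of growing hairs, fell to 30.6, 27.5, 29.9 and 31.0 FPKM in elp2-5, against 47.0, 67.0, 55.9 and 65.0 FPKM in Col-0 (log2 fold change −0.96 ± 0.14, adjusted p = 2.0e-05). RHS18 and PERK13, a peroxidase and a receptor-like kinase specific to hairs, had log2 fold changes of −0.83 and −0.74. PRP1, a proline-rich protein of the hair wall, fell to 30.4, 23.7, 38.2 and 31.4 FPKM in elp2-5, against 54.0, 66.6, 63.3 and 75.0 FPKM in Col-0 (log2 fold change −1.06 ± 0.17, adjusted p = 5.5e-05), the only DEG of both lists. Its log2 fold change was −0.94 without elp2-5 replicate 2 and −0.99 without Col-0 replicate 4. RHD2, the NADPH oxidase of the hair tip, had 17.0 ± 0.625 FPKM in elp2-5, against 20.6 ± 1.49 FPKM in Col-0 (log2 fold change −0.27 ± 0.09, adjusted p = 0.018), and −0.23 with an adjusted p of 0.052 without Col-0 replicate 4. The summed FPKM of the growth list was 717.3 to 810.2 in elp2-5, against 888.4 to 1252 in Col-0.

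Aquaporins, the channels for water in the plasma membrane (PIP) and the vacuolar membrane (TIP), gave the most DEGs of any list. Of 21 genes, 14 fell and 5 rose with an adjusted p under 0.05, 5 and 1 of them as DEGs, and the median was −0.41. TIP2;2 fell to 64.9, 59.4, 71.1 and 54.8 FPKM in elp2-5, against 177, 171, 229.6 and 125 FPKM in Col-0 (log2 fold change −1.46 ± 0.15, adjusted p = 1.8e-07), and PIP2;4 to 35.8, 23.5, 34.5 and 26.4 FPKM in elp2-5, against 82.5, 74.0, 95.7 and 73.4 FPKM in Col-0 (log2 fold change −1.44 ± 0.17, adjusted p = 1.6e-06). TIP2;3, TIP4;1 and, named after its values were seen, DELTA-TIP had log2 fold changes of −1.35, −1.14 and −1.11. In these 5 genes no elp2-5 library reached the level of a Col-0 library.

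PIP2;5 went the opposite way, at 21.0, 38.7, 23.9 and 31.2 FPKM in elp2-5 and 11.3, 9.51, 11.3 and 10.8 FPKM in Col-0 (log2 fold change 1.34 ± 0.15, adjusted p = 6.1e-07). PIP2E and RD28, plasma membrane channels as well, and NIP5;1, a boric acid channel, rose less (0.87, 0.76 and 0.48). Among the most abundant members, TIP2 fell to 1059.6, 1051, 1013 and 927 FPKM in elp2-5, against 1409, 1242, 1617 and 1140.5 FPKM in Col-0 (log2 fold change −0.41 ± 0.12, adjusted p = 0.0082), GAMMA-TIP had a log2 fold change of −0.44, and PIP2A did not pass the test (0.08, adjusted p = 0.6). Summed over all aquaporins, FPKM was 5099 to 6114 in elp2-5, against 6576 to 8592 in Col-0. In FT roots 16 fell and 4 rose.

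Sugar transporters fell in 8 of 15 cases and rose in 3, and those that fell numbered 6 without elp2-5 replicate 2 and 6 without Col-0 replicate 4. SWEET11, a sucrose exporter that feeds phloem loading in leaves, fell to 1.2, 0.33, 2.56 and 1.12 FPKM in elp2-5, against 18.4, 13.8, 20.2 and 4.80 FPKM in Col-0 (log2 fold change −3.01 ± 0.46, adjusted p = 5.0e-05), and SWEET12, its partner, to 1.04, 0.31, 2.63 and 1.23 FPKM in elp2-5, against 6.60, 4.68, 6.93 and 2.08 FPKM in Col-0 (log2 fold change −1.68 ± 0.41, adjusted p = 0.0032). The genotypes did not overlap for SWEET11 and overlapped for SWEET12. SWEET16, a vacuolar sugar transporter, and SWEET13 had log2 fold changes of −0.78 and −0.71. MSS1, a hexose symporter also called STP13, rose to 17.96, 15.4, 18.5 and 19.3 FPKM in elp2-5, against 8.15, 8.65, 8.26 and 12.5 FPKM in Col-0 (log2 fold change 0.90 ± 0.12, adjusted p = 7.2e-06), and SUC1 and PMT5 had log2 fold changes of 0.31 and 0.21. PMT5 lost its call without any 1 of 7 libraries (all but Col-0 replicate 4), with adjusted p of 0.052 to 0.12, and SWEET13 without any 1 of 6 (all but elp2-5 replicate 4 and Col-0 replicate 1), with adjusted p of 0.06 to 0.14.

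Nitrate and ammonium genes divided, with 6 of 17 higher and 3 lower, and 3 higher without Col-0 replicate 3. Besides NRT1.5, which fell, NRT1.8, the transporter that takes nitrate back out of the xylem, rose to 4.11, 6.15, 3.76 and 5.48 FPKM in elp2-5, against 0.49, 0.77, 0.73 and 0.86 FPKM in Col-0 (log2 fold change 2.13 ± 0.19, adjusted p = 5.0e-08). NRT1.5 and NRT1.8 act in opposite directions on nitrate in the xylem sap. In both the genotypes did not overlap, which the ranking by FPKM required of NRT1.5. NRT2:1, the high-affinity uptake transporter, had 7.37, 2.06, 7.32 and 4.69 FPKM in elp2-5 and 1.15, 1.41, 0.82 and 5.32 FPKM in Col-0 (log2 fold change 1.27 ± 0.39, adjusted p = 0.014), with overlap, and its log2 fold change was 1.02 with an adjusted p of 0.062 without Col-0 replicate 3. NIA2, nitrate reductase, and LBD38, a repressor of nitrate responses, rose (0.42 and 0.53), while AMT1;3, an ammonium transporter, and LBD37 fell (−0.57 and −0.33).

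Phosphate starvation genes had 3 of 19 higher and 4 lower, near the shares of all genes (18.9% and 19.8%). Without elp2-5 replicate 4 there were 5 higher. Besides IPS1, PHT1;4, a phosphate uptake transporter, had 24.6, 25.6, 20.4 and 19.2 FPKM in elp2-5 and 7.53, 10.8, 10.8 and 14.1 FPKM in Col-0 (log2 fold change 1.04 ± 0.21, adjusted p = 0.00068), and its log2 fold change was 0.98 without elp2-5 replicate 2, 0.89 without Col-0 replicate 1 and just short of 2-fold without elp2-5 replicate 1. PHT1;2 had 0.86, 0.10, 0.40 and 0.10 FPKM in elp2-5 and 15.1, 29.4, 17.2 and 0.50 FPKM in Col-0 (log2 fold change −3.55 ± 0.74, adjusted p = 0.00079). This gene is a near-identical copy of PHT1;1, which had 136 ± 23.8 FPKM in elp2-5, against 134 ± 29.4 FPKM in Col-0 with an adjusted p of 0.88, so the value of PHT1;2 is uncertain. SQD2 and MGD2, enzymes of the lipids that replace phospholipids, fell (−0.59 and −0.49, with an adjusted p of 0.051 for MGD2 without Col-0 replicate 4), and AT5G03545, another noncoding transcript of the response, did not pass the test (0.29, adjusted p = 0.54).

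Iron deficiency genes had 7 of 23 higher and 2 lower, and those higher numbered 5 without elp2-5 replicate 2 and 8 without Col-0 replicate 4. NAS4 and NAS2 make nicotianamine, the chelator that moves iron within the plant. NAS4 had 12.6, 12.0, 8.76 and 13.3 FPKM in elp2-5 and 4.71, 5.24, 4.45 and 4.34 FPKM in Col-0 (log2 fold change 1.22 ± 0.18, adjusted p = 1.7e-05), without overlap, and NAS2 had 54.0, 31.0, 49.5 and 31.2 FPKM in elp2-5 and 14.0, 20.3, 11.7 and 36.9 FPKM in Col-0 (log2 fold change 1.08 ± 0.27, adjusted p = 0.0032), with overlap and with log2 fold changes of 0.86 to 0.98 in the fits without 1 library that ended its call, namely elp2-5 replicates 1 and 3 and Col-0 replicates 1 and 3. NAS1 and MYB10 rose less (0.55 and 0.72). BHLH101, a factor of the iron response, fell to 0.48, 0.92, 0.19 and 0.51 FPKM in elp2-5, against 1.41, 1.47, 2.00 and 1.37 FPKM in Col-0 (log2 fold change −1.05 ± 0.20, adjusted p = 0.00033), and its log2 fold change was −0.87 without elp2-5 replicate 3 and −0.95 without Col-0 replicate 3. IRT2, an iron transporter, had a log2 fold change of −1.03 ± 0.18 and was under 2-fold without elp2-5 replicate 3, Col-0 replicate 3 or Col-0 replicate 4 (down in size to −0.97 on the log2 scale). IRT1 and FRO2, the uptake transporter and reductase themselves, named after their values were seen, did not pass the test (adjusted p = 0.82 and 0.67).

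Of the hormone lists, auxin transport had 5 members that fell and none that rose among 12. AUX1, the influx carrier of root tip and hairs, fell to 63.2, 46.9, 54.4 and 63.7 FPKM in elp2-5, against 82.8, 87.7, 88.7 and 72.7 FPKM in Col-0 (log2 fold change −0.54 ± 0.08, adjusted p = 1.8e-05), and ABCB19, an efflux transporter, had 45.5 ± 8.05 FPKM in elp2-5, against 64.9 ± 6.76 FPKM in Col-0 (log2 fold change −0.52 ± 0.11, adjusted p = 0.00054). LAX3, ABCB1 and PIN4 had log2 fold changes of −0.41, −0.30 and −0.29, and PIN4 lost its call without Col-0 replicate 1 or elp2-5 replicate 2 (adjusted p of 0.11 in both). Auxin signalling and lateral root initiation gave 6 higher and 5 lower of 26, near the shares of all genes (18.9% and 19.8%). GH3.3, an enzyme that conjugates auxin to amino acids, rose to 4.11, 3.72, 4.71 and 4.30 FPKM in elp2-5, against 0.69, 0.42, 0.60 and 1.59 FPKM in Col-0 (log2 fold change 1.90 ± 0.24, adjusted p = 2.9e-06), and LBD33, a factor of lateral root initiation, to 2.68, 3.72, 2.39 and 2.48 FPKM in elp2-5, against 1.22, 0.67, 0.29 and 0.43 FPKM in Col-0 (log2 fold change 1.57 ± 0.29, adjusted p = 0.0002). LRP1 and LBD29, which act in the same process, rose less (0.95 and 0.78). SHY2, IAA19 and AXR3, Aux/IAA repressors of auxin responses, fell (−0.51, −0.45 and −0.41).

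Jasmonate and ethylene defence genes rose in 9 of 18 cases and fell in 2, with a median of 0.33. LOX2, a lipoxygenase of jasmonate synthesis, had 1.2, 0.82, 1.0 and 1.04 FPKM in elp2-5 and 0.03, 0.13, 0.08 and 0.07 FPKM in Col-0 (log2 fold change 1.39 ± 0.17, adjusted p = 2.1e-06). No Col-0 GC library of LOX2 reached the 1 FPKM of the filter, so the gene was open to the test only through libraries where it was higher. PR4, a chitin-binding defence protein, had 264, 403, 343 and 297 FPKM in elp2-5 and 132, 152, 146 and 236 FPKM in Col-0 (log2 fold change 0.99 ± 0.16, adjusted p = 7.3e-05), and the JAZ repressors JAZ10 and JAZ5, themselves induced by jasmonate, had log2 fold changes of 0.81 and 0.77. The call of JAZ10 was lost without Col-0 replicate 3 (0.75, adjusted p = 0.055). ORA59 and JAR1 fell (−0.81 and −0.33). In FT roots 11 members rose and 1 fell.

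Salicylic acid genes gave 3 higher and 5 lower of 18 in the full set of libraries, beside 18.9% and 19.8% of all genes. Without Col-0 replicate 4, the library with high CBP60G, they gave 6 higher and 4 lower. The median was −0.18 with all libraries and 0.15 without that library. The summed FPKM of all 21 members was 154.9 to 161.1 in elp2-5, against 130.2 to 333.6 in Col-0, with the highest in Col-0 replicate 4. ALD1, the aminotransferase of pipecolic acid synthesis, fell to 0.80, 0.54, 0.53 and 0.41 FPKM in elp2-5, against 2.27, 6.56, 2.97 and 5.95 FPKM in Col-0 (log2 fold change −2.11 ± 0.41, adjusted p = 0.00042). BGL2, the beta-glucanase also called PR2, had 0.27, 1.19, 1.29 and 1.57 FPKM in elp2-5 and 0.03, 0.10, 0 and 0.91 FPKM in Col-0 (log2 fold change 1.11 ± 0.32, adjusted p = 0.0089), and its log2 fold change was 0.98 without Col-0 replicate 1 and 0.95 without Col-0 replicate 3.

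Abscisic acid, drought and cold genes gave 5 higher and 6 lower of 20. KIN1, a small protein induced by cold and abscisic acid, rose to 89.7, 127, 68.2 and 67.3 FPKM in elp2-5, against 16.2, 12.8, 25.6 and 30.4 FPKM in Col-0 (log2 fold change 2.05 ± 0.29, adjusted p = 1.9e-05), with every mutant library above every Col-0 library. RD22 and LTI30, further dehydration markers, rose less (0.88 and 0.77). NCED3, the enzyme that limits abscisic acid synthesis, fell to 1.52, 1.11, 0.93 and 0.99 FPKM in elp2-5, against 2.71, 2.26, 3.78 and 2.4 FPKM in Col-0 (log2 fold change −1.0 ± 0.19, adjusted p = 0.00031). The change of NCED3 was just short of 2-fold, so it was not a DEG. COR47, a dehydrin, had a log2 fold change of −0.61. The abscisic acid response element has the core ACGTGG, which was found on either strand in the 250 bases before 6 of the 20 genes (30%), beside 8.97% of all promoters, 10.6% for DEGs that rose and 8.38% for DEGs that fell. The window before KIN1 (chr5:5209467-5209716 of TAIR10.1, plus strand) is shown as that of the only DEG of the list, with its match, on the other strand, in capitals.
KIN1: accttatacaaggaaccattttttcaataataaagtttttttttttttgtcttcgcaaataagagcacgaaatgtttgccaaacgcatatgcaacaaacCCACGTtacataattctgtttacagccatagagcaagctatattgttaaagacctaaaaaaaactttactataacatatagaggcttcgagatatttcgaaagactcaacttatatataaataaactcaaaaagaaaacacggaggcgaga

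Among stress lists, the core hypoxia response had 3 members that rose of 13 and none that fell, beside 18.9% and 19.8% of all genes. ADH1, alcohol dehydrogenase, had 24.4, 71.3, 36.3 and 145 FPKM in elp2-5 and 14.1, 14.5, 29.3 and 20.5 FPKM in Col-0 (log2 fold change 1.53 ± 0.51, adjusted p = 0.023), AT4G33070, a pyruvate decarboxylase, had 17.57, 48.3, 26.6 and 106 FPKM in elp2-5 and 8.49, 14.2, 17.2 and 16.4 FPKM in Col-0 (log2 fold change 1.5 ± 0.54, adjusted p = 0.033), and ERF71, a factor of the response, had 0.68, 4.04, 2.68 and 7.13 FPKM in elp2-5 and 0.52, 0.30, 0.89 and 0.62 FPKM in Col-0 (log2 fold change 1.67 ± 0.56, adjusted p = 0.023). The mutant libraries spread widely, elp2-5 replicates 2 and 4 were high, and no member passed the test without elp2-5 replicate 2, elp2-5 replicate 4 or Col-0 replicate 2. Without Col-0 replicate 1 there was 1 that did. ADH1 and AT4G33070 also lost their calls without elp2-5 replicate 4, Col-0 replicate 1 or Col-0 replicate 2, with log2 fold changes of 1.07 to 1.41 and 1.03 to 1.52 over the fits that ended them, and ERF71 did so without elp2-5 replicate 4 or Col-0 replicate 2 (1.28 and 1.53). The summed FPKM of the list was 249.0 to 663.7 in elp2-5, against 217.0 to 303.6 in Col-0.

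Of 21 genes that make or remove reactive oxygen species, 5 rose and 4 fell, near the shares of all genes (18.9% and 19.8%). AOX1C, a mitochondrial alternative oxidase, rose to 3.39, 2.58, 4.84 and 5.32 FPKM in elp2-5, against 0.64, 0.62, 0.82 and 0.79 FPKM in Col-0 (log2 fold change 1.86 ± 0.20, adjusted p = 5.2e-07), and UPB1, a factor that controls peroxidases at the transition to elongation, fell to 7.01, 9.37, 7.34 and 5.05 FPKM in elp2-5, against 12.2, 12.3, 12.9 and 14.8 FPKM in Col-0 (log2 fold change −0.84 ± 0.14, adjusted p = 8.4e-05). Heat shock genes fell in 7 of 13 cases and rose in 1 (none without elp2-5 replicate 2 or Col-0 replicate 1), with HSFA7A, a heat shock factor, at 9.70 ± 2.59 FPKM in elp2-5, against 19.7 ± 3.48 FPKM in Col-0 (log2 fold change −1.01 ± 0.17, adjusted p = 0.00011). The log2 fold change stayed short of 2-fold, down in size to −0.85, without elp2-5 replicates 1 or 4 or Col-0 replicates 1 or 3, which ended the call as a DEG. HSP101, the disaggregase, and HSFA2 had log2 fold changes of −0.53 and −0.75.

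Glucosinolate genes gave 4 higher and 8 lower of 23, and 5 and 6 without Col-0 replicate 4, while 5 were lower without Col-0 replicate 3. IGMT1, which methylates indole glucosinolates, had 8.90, 5.36, 14.9 and 9.26 FPKM in elp2-5 and 26.9, 25.7, 32.5 and 71.1 FPKM in Col-0 (log2 fold change −1.92 ± 0.39, adjusted p = 0.00073), with Col-0 replicate 4 far above the rest, and MYB34 and CYP79B2 of indole glucosinolate synthesis rose (0.43 and 0.42). The flavonoid and anthocyanin list had 1 member that rose of 15, UGT78D1 (0.73 ± 0.14), and none that fell.

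Of 10 genes that mark shoot meristem or leaf identity, 5 rose and 3 fell in roots, and 3 rose without elp2-5 replicate 4. KNAT6, a KNOX homeobox factor that is also expressed where lateral roots form, had 14.1, 16.6, 15.7 and 15.0 FPKM in elp2-5 and 7.03, 5.99, 6.77 and 6.50 FPKM in Col-0 (log2 fold change 1.16 ± 0.09, adjusted p = 1.1e-08). KNAT1, another KNOX factor, had 30.3, 39.96, 30.1 and 32.5 FPKM in elp2-5 and 19.7, 19.4, 23.0 and 17.2 FPKM in Col-0 (log2 fold change 0.73 ± 0.16, adjusted p = 0.0012). AS1, which represses KNOX genes in leaves, had 19.6 ± 1.0 FPKM in elp2-5, against 24.2 ± 2.24 FPKM in Col-0 (log2 fold change −0.29 ± 0.06, adjusted p = 0.00037). CER1, an enzyme of wax alkanes of the shoot surface, had 2.49, 1.87, 2.70 and 2.30 FPKM in elp2-5 and 8.26, 9.99, 8.53 and 3.52 FPKM in Col-0 (log2 fold change −1.43 ± 0.29, adjusted p = 0.0005). In these genes the genotypes did not overlap, and the leaf and photosynthesis markers given above did not pass the test.

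The flight libraries hold the same contrast of genotypes. The ground log2 fold changes rest on the GC libraries alone, but the FT libraries entered the filter and the estimate of spread of the ground test, and with only the compared libraries fitted the ground DEGs numbered 716. In FT roots 835 genes were DEGs between elp2-5 and Col-0 (3.98%), 390 higher and 445 lower. They shared 499 genes with the 784 of the ground, which is 63.6% of the ground DEGs and 59.8% of the flight DEGs, and all 499 had the same direction. Of the ground DEGs, 772 had the same sign in flight, and 670 (85.5%) did so with an adjusted p under 0.05 in flight, a threshold that 36.7% of all genes passed in either direction. The other 12 had the opposite sign, none of them with an adjusted p under 0.05 in flight.

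**Figure D4:**
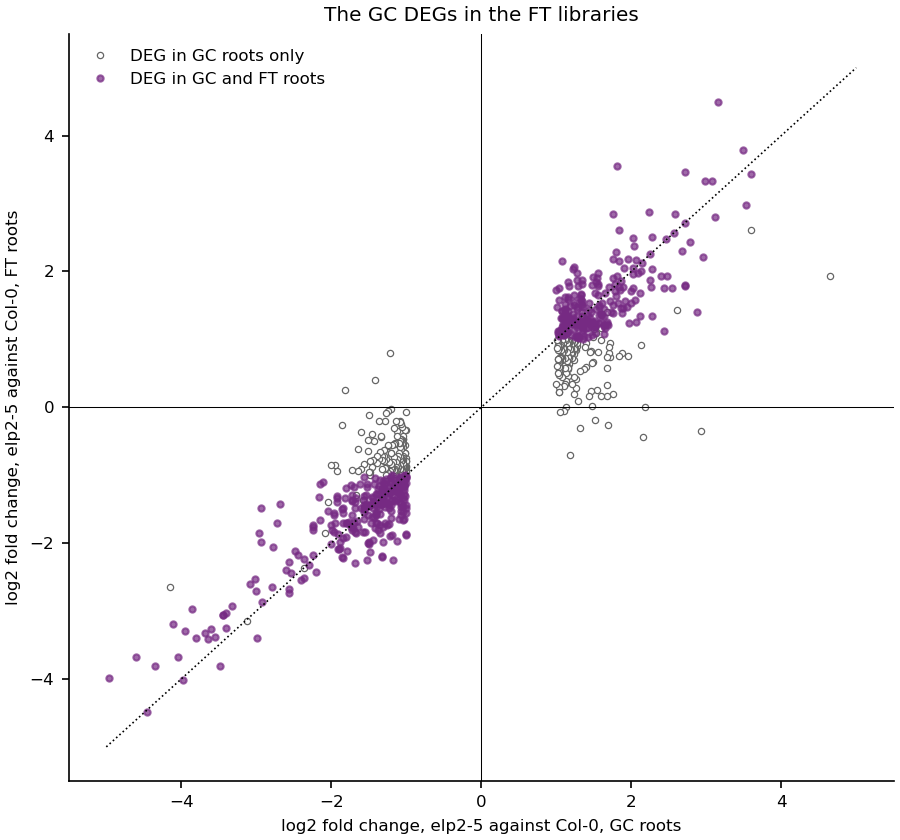
Log2 fold change of elp2-5 over Col-0 in GC roots (horizontal) and in FT roots (vertical) for the 784 DEGs of the ground comparison. Filled points are the 499 that were DEGs in both environments. Points lie along the diagonal, and 12 have opposite signs.

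Several of the genes named above passed the test in flight as well. NAC044 had 21.3, 20.2, 21.3 and 22.3 FPKM in elp2-5 FT roots, against 2.38, 1.79, 1.92 and 3.12 FPKM in Col-0 FT roots (log2 fold change 2.98, adjusted p = 2.4e-10). ASN1 had 58.7, 59.9, 64.5 and 60.8 FPKM in elp2-5 FT roots, against 17.2, 11.0, 9.85 and 14.0 FPKM in Col-0 FT roots (2.22, adjusted p = 7.4e-09). In both genes the genotypes were apart in flight as well. UMAMIT36 had a log2 fold change of 2.80, NRT1.5 of −1.41, ACT2 of −1.04 and AT1G68040 of −3.98 in flight. Others did not pass the test in flight, among them AT4G04223 (1.93, adjusted p = 0.084), AT2G43150 (−0.35, adjusted p = 0.068), CER1 (−0.49, adjusted p = 0.19) and ADH1 (1.09, adjusted p = 0.1).

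**Figure D5:**
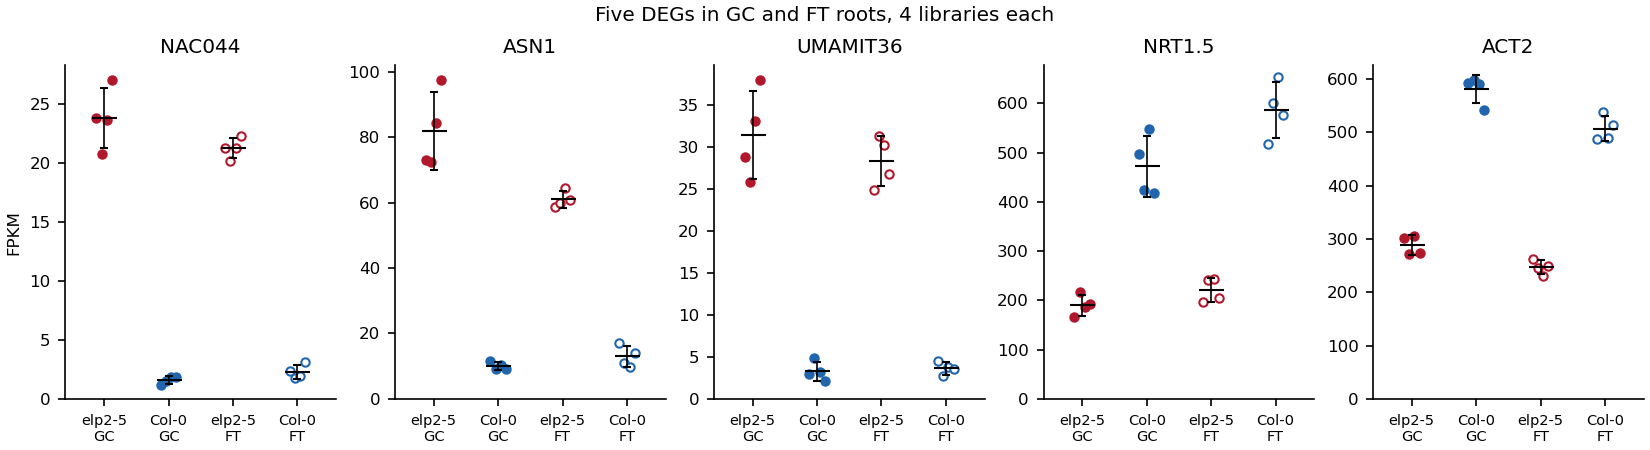
FPKM of NAC044, ASN1, UMAMIT36, NRT1.5 and ACT2 in each library of elp2-5 GC, Col-0 GC, elp2-5 FT and Col-0 FT roots. Points are libraries and bars are the mean and SD of 4. The elp2-5 libraries lie above Col-0 for NAC044, ASN1 and UMAMIT36 and below it for NRT1.5 and ACT2, on the ground and in flight.

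Whether the difference between the genotypes itself differed between the ground and flight was tested as an interaction in the same limma fit. No gene passed it (0 of 21000, 0%), the lowest adjusted p was 0.16, and 2179 genes (10.4%) had an unadjusted p under 0.05. Of the 4 genes of lowest p, AT5G65990, an amino acid transporter, had log2 fold changes of −0.33 on the ground and 0.43 in flight, and LRL2, a relative of LRL3, of −0.03 and 0.48. FAH1, an enzyme of lignin synthesis, had 0.22 and 1.08, and AT5G46160, a ribosomal protein, 0.31 and −0.16.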

How the data were processed

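Roots of 11-day seedlings were sequenced as strand-specific poly(A) libraries, 4 a group. The FPKM values were deposited by the authors, who per the labels and the study's methods checked and trimmed reads (FastQC, Trimmomatic), aligned them to TAIR10 with STAR and estimated transcript levels with RSEM. Tool versions for the RNA-seq data are not given in the sources used here. The authors tested counts with edgeR. Here log2(FPKM + 0.5) values entered a limma fit (version 3.58.1, R 4.3.3; trend and robust empirical Bayes, two-sided), with the 6 root groups together and Benjamini-Hochberg adjustment. Genes needed 1 FPKM in at least 4 of 24 libraries, which left 21000 of 33977, and 32548 table entries matched the RefSeq annotation TAIR10.1. A gene low in 1 genotype could pass this filter through the libraries where it was high, which partly sets the direction of such genes. Tables were made in Python 3.11.15.

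Named genes were ELP2, the 12 largest rises and falls in fold and the 6 in FPKM among DEGs without overlap, and per list the members past the test (the 4 largest each way where over 8 passed) and the 3 of highest FPKM. The 26 lists (523 genes) and the comparison were chosen with earlier results of these data known. Near-identical copies share 95% identity over 80% of their length. Alternatives changed the pseudocount, filter, scaling, weights, libraries fitted and replicate block, or left out libraries. Leaf libraries served only to check markers. Of the list members, 2 enter the counts but are not reported or plotted by name here. The method was tested on simulated data.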

Additional observations from a re-analysis of the deposited data

Results flagged for a closer look

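Within single groups of 4 libraries, 1 library stood far from the other 3 for 10 of the genes named above. In elp2-5 GC roots these were AT1G34047 at 23.36 FPKM in replicate 4, AT1G75945 at 3.18 FPKM in replicate 3 and AT3G02100 at 0.61 FPKM in replicate 1. In Col-0 GC roots, replicate 4 stood apart for ACT2 (542.06 FPKM), BGL2 (0.91 FPKM), NRT2:1 (5.32 FPKM) and IGMT1 (71.11 FPKM), replicate 1 for AT2G43150 (1592.06 FPKM), replicate 2 for LRL2 (33.84 FPKM) and replicate 3 for BHLH101 (2.0 FPKM). The gap to the nearest library was above Dixon's critical value in each case, among 162 values checked, and chance gives about 1 such case in 20 groups. Of the libraries as wholes, elp2-5 replicate 2 stood apart by its median correlation with its group (0.964) and its FPKM from plastid genes (3707), and Col-0 replicate 4 by its median correlation (0.957) and by 918 genes more than 2-fold from its group.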

How the results depend on the processing

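The count of ground DEGs, 784, was 842 with library weights, 785 with median-ratio scaling, 785 with quantile normalization (400 higher, 385 lower), 811 with no filter, 716 with only the compared libraries fitted, 1004 with a pseudocount of 0.1 FPKM, 581 with 1 FPKM and 851 without elp2-5 replicate 2 and Col-0 replicate 4 together, a setting chosen after seeing the data. Leaving out 1 library at a time gave 707 to 901, and 488 of the 784 were called in every such fit, 416 under every alternative. The flight count was 627 to 1092 over the alternatives and 769 to 873 over left-out libraries. The interaction gave 1 gene with no filter, and 0 to 1 over left-out libraries. The count of list members called, 38, was 32 to 42 throughout. Of 1268 fits of named DEGs and the 4 genes of lowest interaction p, none reversed direction. By adjusted p alone 28, in 7 genes (ENSRNA049493722, BGL2, NRT2:1, NAS2, ADH1, AT4G33070 and ERF71), lost significance. Calls that ended because the change fell under 2-fold are not in that count, among them calls of ACT2, AT2G38380, AT3G54580, PRP1, IRT2 and HSFA7A. Libraries of the same replicate number did not deviate together (correlations of −0.0653 to 0.077 on the ground and −0.0335 to 0.0451 in flight), so the numbers were not used as pairs. With a replicate block the counts were 787 on the ground, 827 in flight, 38 for list members and 0 for the interaction.

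FPKM hold no read totals, so the precision of low values is unknown, and 4 libraries a group limit all of it. ELP2 was measured as a whole transcript. Values of genes with copies or overlapping loci are uncertain. Quantile normalization also took AT2G38380, GDH2, IRT2 and HSFA7A below 2-fold, and a pseudocount of 1 FPKM did so for LOX2, BGL2, BHLH101, IRT2 and HSFA7A.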

Other observations

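Gene families grouped by annotated product, chosen after the values were seen, held further differences, to be read beside the 18.9% of all genes that rose and the 19.8% that fell. Of 325 ribosomal protein genes, 136 rose and 22 fell on the ground (median log2 fold change 0.16), whereas 43 rose and 54 fell in flight (median 0.01), and with quantile normalization the ground counts were 101 and 30 (median 0.08), and the difference between ground and flight was not tested for the family. Arabinogalactan proteins, glycoproteins of the cell surface, fell in 27 of 42 cases and rose in 2 (median −0.40, and 4 rose without Col-0 replicate 2 and 1 without Col-0 replicates 1 or 4 or elp2-5 replicate 2), and in flight fell in 23 and rose in 5. Proline-rich and extensin-like wall proteins fell in 61 of 160 cases and rose in 17, and receptor-like kinases fell in 22 of 52 and rose in 1 (3 without Col-0 replicate 4 or elp2-5 replicate 2, and 2 without elp2-5 replicate 3). NAC factors rose in 24 of 62 cases and fell in 6, and ERF factors rose in 20 of 50 and fell in 4 (2 without Col-0 replicates 2 or 3 or elp2-5 replicate 4).

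Single genes outside the groups above were also named after their values were seen. EMB1030, an alanyl-tRNA synthetase, had 31.8, 24.1, 31.5 and 35.0 FPKM in elp2-5 and 4.36, 5.05, 5.06 and 4.37 FPKM in Col-0 (log2 fold change 2.57 ± 0.12, adjusted p = 4.9e-12), the genotypes far apart. Among 52 aminoacyl-tRNA synthetase genes 15 rose and 4 fell, beside 18.9% and 19.8% of all genes. NUC-L2, a nucleolin of the nucleolus, had 20.09, 11.4, 16.9 and 19.2 FPKM in elp2-5 and 3.88, 3.91, 3.1 and 3.94 FPKM in Col-0 (log2 fold change 2.02 ± 0.15, adjusted p = 3.1e-09), and ACC2, an acetyl-CoA carboxylase, had 19.4, 11.2, 16.7 and 21.1 FPKM in elp2-5 and 2.74, 2.65, 2.78 and 2.29 FPKM in Col-0 (log2 fold change 2.46 ± 0.17, adjusted p = 1.4e-09). SULTR1;3, a sulfate transporter of the phloem, and LSU2, a gene induced by sulfur deficiency, rose by log2 fold changes of 2.02 ± 0.33 and 1.67 ± 0.23. CYP78A5 and CYP78A8, P450 genes of a family known for organ growth, fell (−2.93 and −2.57).

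Some DEGs lay side by side on the chromosome. Of the placed DEGs that rose, 10.4% (38 of 365) had a DEG of the same direction as the adjacent tested gene. Of those that fell, 13.9% (57 of 411) did. Over all genes tested, 1.78% were DEGs that rose and 1.96% were DEGs that fell. A gene has an adjacent gene on each side, and the share that random placement would give was not computed. Further, 15 runs of at least 3 DEGs of 1 direction with at most 2 other tested genes between neighbours held 46 genes. The runs include loci that overlap each other and calls lost in other fits. One run held the dioxygenase genes AT1G52790, AT1G52800 and AT1G52820 (−3.40, −2.54 and −2.99), which stayed DEGs under each alternative. Tandem copies can share reads, and whether that had a part was not tested.

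The telo-box, searched as AAACCCTA on both strands, lay in the 250 bases before 14.8% of ribosomal protein genes (48 of 325), 6.16% of DEGs that rose and 2.54% of DEGs that fell, beside 3.58% of all promoters. The phosphate response element, searched as GNATATNC, lay before 5.87% of DEGs that rose and 8.12% of those that fell, beside 5.43% of all promoters. Among the tested genes of the phosphate starvation list it lay before 26.3% (5 of 19).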
